A study of Mus musculus with 42 samples.

Results

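The liver releases hormone-like proteins, the hepatokines, into the blood, and 9 of them were followed here at the level of their liver transcripts. The genes were Fgf21, Gdf15, Inhbe, Angptl4, Angptl8, Igfbp1, Ahsg, Fetub and Lect2, chosen by symbol as 9 of the 54446 genes in the count table. All 9 were found under their symbols and all 9 had enough counts to be tested. Liver RNA was sequenced from 42 female mice, 1 library per mouse, and every mouse in every group carried the human APOE*3-Leiden transgene, which slows the clearance of triglyceride-rich lipoproteins. The comparison group without WTD (n = 10, chow-fed mice) ate standard chow throughout. WTD-fed mice (n = 16) were 8 to 14 weeks old when they started a Western-type diet (WTD) with 15% cocoa butter, 40.5% sucrose and 1% cholesterol. After a run-in of 3 weeks they were followed for 32 weeks, and from week 22 the diet also contained 0.05% sodium cholate. Atorvastatin-treated mice (n = 16) had the same diet, run-in and cholate, with atorvastatin mixed into the food from the end of the run-in at 3.0 mg/kg/day and at 4.5 mg/kg/day from week 5. Chow-fed mice bear numbers of another series (AZ) than the mice on WTD (Gen). What that prefix stands for is not given, so it cannot be told apart from the diet, and neither can cholate. The age of the chow-fed mice is not given either, and the matching described at the end of the run-in covered only the groups on WTD. The feeding state of the mice at sacrifice is not given in the sources used here.

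Hepatokines carry signals of nutrient supply and of stress from the liver to other organs. FGF21 acts on fat tissue and brain through FGF receptors that pair with beta-klotho, and GDF15 acts on the hindbrain through GFRAL. Both are known as targets of the integrated stress response, the program driven by ATF4. Activin E, the product of Inhbe, is a liver signal to fat tissue. ANGPTL4 and ANGPTL8 restrain lipoprotein lipase, the enzyme that releases fatty acids from circulating triglycerides. ANGPTL4 is known as a signal of fasting under PPAR alpha and ANGPTL8 as one of feeding under insulin, and IGFBP1 binds insulin-like growth factors and is shut off by insulin. Fetuin-A (Ahsg) and fetuin-B (Fetub) are plasma proteins of the cystatin superfamily, of which fetuin-A binds calcium phosphate and fetuin-B inhibits ovastacin, a protease of the egg. LECT2 was first described as a chemotactic factor for neutrophils and is a ligand of the receptors MET and TIE1.

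Libraries held between 15661381 and 36224054 counted read pairs on genes, with a median of 19421089.5. In 8 libraries, 3 of the chow, 4 of the WTD and 1 of the atorvastatin group, over 20% of the genes at 1 to 2 CPM (counts in a library scaled by TMM to a common total of 1000000) had no count at all, so these libraries say least about weakly expressed genes such as Fgf21. Markers of the labelled tissue were abundant. The summed level of 11 hepatocyte markers, of 12 listed, had a median of 135840 CPM (119615 to 172955) in chow-fed, 72879 CPM (57025 to 118233) in WTD-fed and 115726 CPM (67212 to 141518) in atorvastatin-treated mice. Macrophage and Kupffer cell markers summed to medians of 668, 3283 and 2451 CPM in the same order, 12 genes in all. A transcript of hepatocytes can therefore be lower in whole liver because there are fewer hepatocytes or because each holds less of it, and bulk samples cannot tell these apart.

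Levels of different genes were compared per kilobase of annotated exon, taken as the union over all annotated transcripts. A gene whose liver transcript is shorter than that reads too low, so the order of genes close in level depends on this length. In chow-fed mice Ahsg came far first with 5037 ± 710 CPM per kilobase (mean ± SD), ahead of Fetub with 385 ± 36 and Lect2 with 220 ± 27. Igfbp1 (91.2 ± 44.5) and Angptl8 (84.0 ± 35.3) followed at levels within their spread of each other. Angptl4 (28.7 ± 16.3), Gdf15 (10.4 ± 6.35), Inhbe (9.48 ± 3.51) and Fgf21 (4.22 ± 3.42) came last, with intervals of mean ± 1 SD that overlapped between neighbours among them. In WTD-fed mice the order changed for Angptl4 alone. Fetub (157 ± 23.0) and Lect2 (135 ± 23.6) came within their spread of each other, and Angptl4 dropped to 9.93 ± 4.03 CPM per kilobase, behind Gdf15 (17.1 ± 5.63) and Inhbe (11.4 ± 5.32) and beside Fgf21 (9.61 ± 4.51). The top 5 in atorvastatin-treated mice were in the same order as in WTD-fed mice except that Angptl8 (80.3 ± 20.7) stood above Igfbp1 (69.4 ± 27.7).

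**Figure D1:**
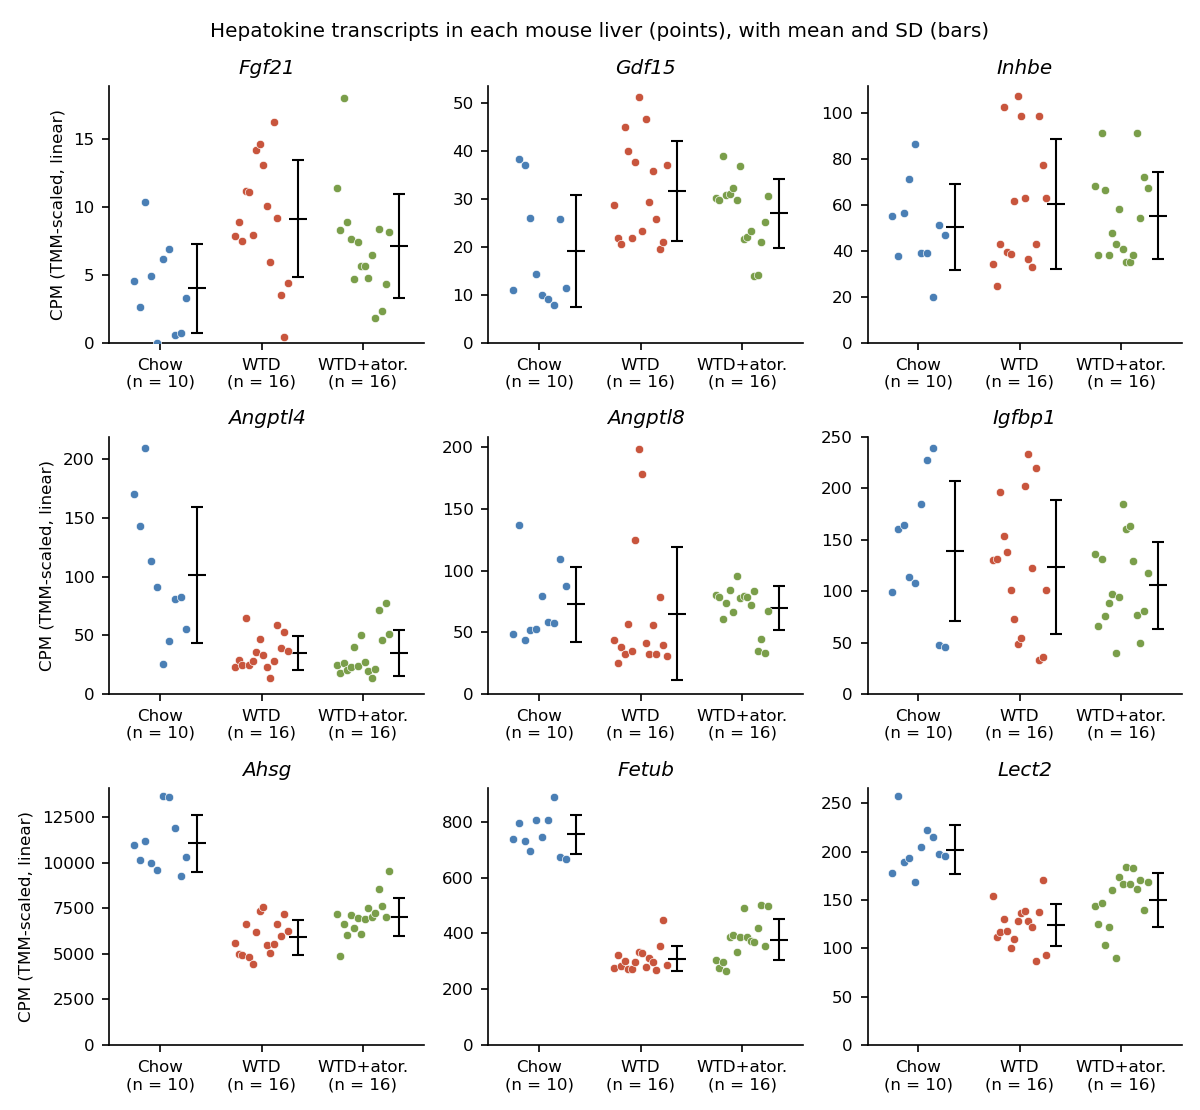
Level of each hepatokine transcript in each of the 42 mice, 1 panel per gene with a linear axis in CPM. Each point is 1 mouse, the horizontal bar is the group mean and the error bar is 1 SD. Fetub and Ahsg of the WTD-fed mice lie below every chow-fed mouse, while Angptl8 and Igfbp1 overlap widely.

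Comparing the WTD group with chow, 5 of the 9 transcripts passed the test (adjusted p under 0.01 in edgeR's quasi-likelihood test). Fetub, Ahsg, Lect2 and Angptl4 were lower on WTD and Gdf15 was higher. Over all 15574 tested genes 33.5% were called, 17.5% higher and 16.0% lower, so 4 lower of 9 is to be read against the last of these shares. Counts on WTD in the gene lists below are likewise to be read against these shares. Ranges of the 2 groups did not overlap for Fetub and Ahsg, against 5.83% of all tested genes. The median log2 fold change of the 9 was -0.17, and that of all tested genes was 0.03. Without the 8 libraries that lack weakly expressed genes, 4 members were called and Gdf15 was no longer among them.

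Between atorvastatin-treated and WTD-fed mice only Fetub passed the test, as 1 of 9, where 7.10% of all genes were called, 4.84% higher and 2.26% lower. Counts in the gene lists below for this comparison are to be read against the same shares. No member's groups were apart, and 0.00642% of all genes had groups that were. The median log2 fold change of the members was -0.02, against 0.00 over all genes. Atorvastatin-treated mice were lower than chow-fed mice in 4 members, Angptl4, Fetub, Ahsg and Lect2, and higher in 0, with 1 higher at an unadjusted p under 0.05. In that comparison 25.0% of all genes were called, 14.2% higher and 10.7% lower, and the ranges of Fetub alone did not overlap, against 4.37% of all genes. The chow group serves in 2 of the 3 comparisons and the WTD group in 2, so these are not independent of each other.

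**Figure D2:**
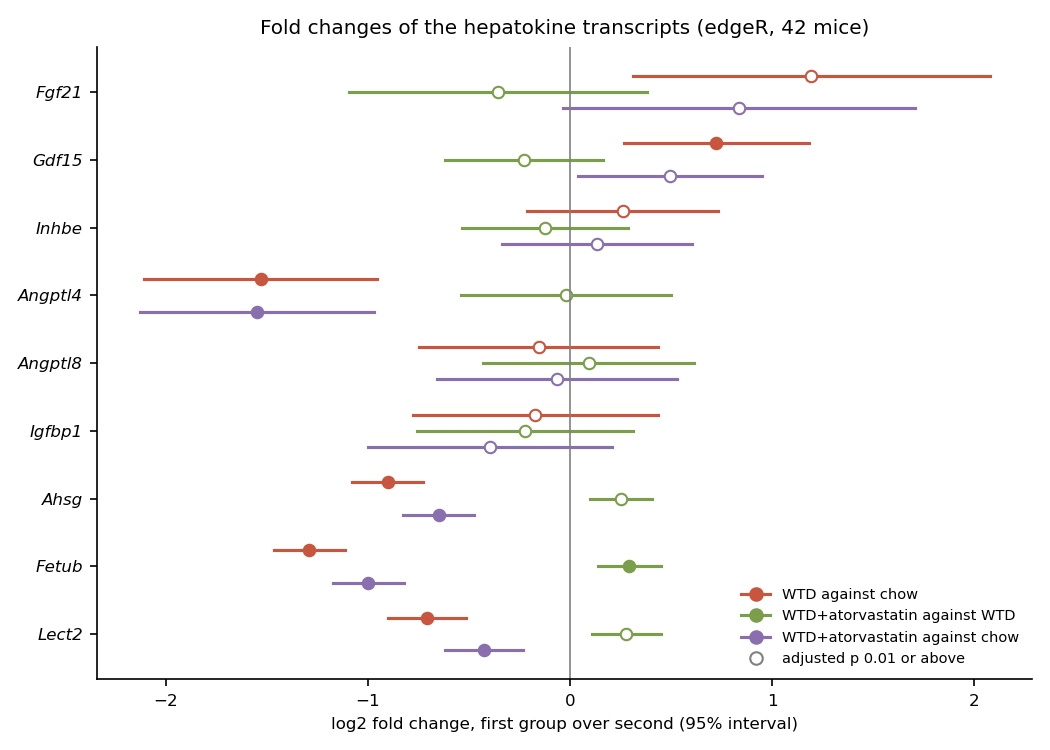
Log2 fold change of each hepatokine transcript in the 3 comparisons, with 95% intervals from the model over 42 mice. Filled points have an adjusted p under 0.01 and open points do not. Angptl4, Ahsg, Fetub and Lect2 lie left of 0 in both comparisons with chow, and Fetub, Ahsg and Lect2 lie between 0.25 and 0.29 for atorvastatin-treated against WTD-fed mice.

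The fetuin genes are neighbours on chromosome 16 of GRCm38, Ahsg at chr16:22891277-22899449 and Fetub at chr16:22918334-22939778, both on the plus strand. Fetub ranged from 668 to 890 CPM in chow-fed mice with a median of 743, from 270 to 449 with a median of 298 in WTD-fed mice, and from 265 to 504 with a median of 380 in atorvastatin-treated mice. Every mouse on WTD, treated or not, was below the lowest chow-fed mouse. The transcript was 2.45-fold lower on WTD than on chow (log2 fold change -1.29, standard error 0.09, adjusted p = 7.44e-18), and it held in all 10 alternative settings and without each of the 42 mice. Atorvastatin-treated mice were 1.22-fold above WTD-fed mice (log2 fold change 0.29, standard error 0.08, adjusted p = 0.00699), and 14 of 16 lay above the WTD median. This call is close to the threshold. It was lost in 6 of 10 alternatives, where the log2 fold change lay between 0.25 and 0.29, and it was kept when any 1 of 24 of the 42 mice was dropped.

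Ahsg was the most abundant of the 9 at 9270 to 13639 CPM in chow-fed mice, with a median of 10634. WTD-fed mice lay between 4451 and 7562 CPM around a median of 5787, all below the lowest chow-fed mouse. Atorvastatin-treated mice had a median of 7014 CPM, with 4896 and 9543 at the ends, and 15 of 16 were below the chow range. The level on WTD was 1.87-fold lower than on chow (log2 fold change -0.90, standard error 0.09, adjusted p = 1.33e-12). The value of 0.25 on the log2 scale for atorvastatin-treated against WTD-fed mice had an adjusted p of 0.0215 and an interval of 0.10 to 0.41, with 15 of 16 treated mice above the WTD median. It passed the threshold by limma-voom (0.43, adjusted p = 8.85e-06) and without the 8 weak libraries (0.33, adjusted p = 0.0092). An antisense gene, Gm30505, shares 62 exon bases with Ahsg and had 4725 counts over all mice against 6621730 for Ahsg.

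Within each mouse the ratio of the fetuins does not depend on how libraries are scaled. Fetub stood at a mean log2 ratio to Ahsg of -3.87 ± 0.18 in chow-fed, -4.26 ± 0.21 in WTD-fed and -4.23 ± 0.21 in atorvastatin-treated mice. Fetub was thus lower on WTD relative to Ahsg as well, by more than the SD of either group. Hepatocyte markers moved with both genes, with 11 of 11 called lower on WTD than on chow at a median log2 fold change of -0.91, and 8 of 11 called higher in atorvastatin-treated than in WTD-fed mice at a median of 0.47. Alb alone had means of 50778 CPM on WTD and 78327 CPM with atorvastatin, most of the marker sum. Ratios to that sum, here and for the other members, are therefore largely ratios to Alb and not levels per hepatocyte. Per 1000 CPM of the summed hepatocyte markers, Fetub had medians of 5.27, 4.12 and 3.62 on chow, on WTD and with atorvastatin, and Ahsg had 79.1, 76.2 and 68.4. On that scale the mean log2 difference between WTD-fed and chow-fed mice was -0.38 for Fetub and 0.01 for Ahsg, and the difference between atorvastatin-treated and WTD-fed mice was -0.24 for Fetub and -0.26 for Ahsg, opposite in sign to the values in CPM. The part of the hepatocyte share of the tissue in these results was not tested.

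Other liver genes of the cystatin superfamily were split by direction. Of 5 tested, 3 were called lower on WTD, the plasma proteins Hrg, Kng1 and Kng2, and 2 were called higher, Cst3 and Cstb, which encode the protease inhibitors cystatin C and cystatin B. Kng1, which encodes kininogen, had a mean of 2830 CPM in chow-fed and 1738 CPM in WTD-fed mice (log2 fold change -0.70, adjusted p = 1.92e-08). Cstb went the other way, from 29.2 to 73.7 CPM (log2 fold change 1.33, adjusted p = 4.76e-11). In atorvastatin-treated against WTD-fed mice the same 3 were called higher and the same 2 lower, with Kng1 at 0.40 (adjusted p = 0.000723) and Cstb at -0.77 (adjusted p = 2.33e-05). Without the 8 weak libraries 1 was called higher and 2 lower in this comparison.

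Lect2 (chr13:56542464-56548502, minus strand) ranged from 169 to 257 CPM in chow-fed mice with a median of 197. WTD-fed mice had 87.2 to 171 CPM with a median of 125, and 15 of 16 were below the lowest chow-fed mouse. The level was 1.63-fold lower (log2 fold change -0.71, standard error 0.10, adjusted p = 1.93e-08) and was called in all 10 alternatives and without each mouse. Atorvastatin-treated mice ranged from 89.7 to 184 CPM around a median of 161, and 13 of 16 were above the WTD median. The log2 fold change against WTD was 0.28 with an interval of 0.11 to 0.45 and an adjusted p of 0.0212, which missed the threshold. Of the 10 alternatives it passed only by limma-voom (0.42, adjusted p = 1.24e-05), and it also passed without WTD mouse 15 or without treated mouse 4 or 7. Per 1000 CPM of hepatocyte markers the medians were 1.40, 1.72 and 1.42, so on that scale WTD-fed mice were the highest, with a mean log2 difference of 0.20 from chow. Of its 5 tested receptors and partners, Met was called lower on WTD (log2 fold change -0.36, adjusted p = 0.00158), and Cd209a and the protease gene Mmp2 were called higher, the latter from 7.36 to 57.6 CPM. Mmp2 was called lower in atorvastatin-treated than in WTD-fed mice (log2 fold change -0.81, adjusted p = 0.00645), a call that was lost without the 8 weak libraries.

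Angptl4 (chr17:33773750-33781830, minus strand) was lower in both groups on WTD. In chow-fed mice it ranged from 25.7 to 209 CPM with a median of 86.9, an 8.13-fold range. WTD-fed mice lay between 13.8 and 65.1 CPM with a median of 30.8, and all 16 were below the chow median. Atorvastatin-treated mice had 13.3 to 77.2 CPM with a median of 25.6. The groups overlapped through chow-fed mice 6, 7 and 10 at 25.7, 45.4 and 55.2 CPM, and 5 of 16 WTD-fed mice were below the chow range. The level was 2.89-fold lower on WTD than on chow (log2 fold change -1.53, standard error 0.29, adjusted p = 2.39e-05), called in all 10 alternatives and without each mouse. Between atorvastatin-treated and WTD-fed mice the log2 fold change was -0.02 with an interval of -0.54 to 0.50. Per 1000 CPM of hepatocyte markers the mean log2 difference was -0.48 on WTD against chow and -0.62 with atorvastatin against WTD.

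Angptl8 (chr9:21835510-21837347, plus strand) did not pass the test in any comparison, and its spread differed between the groups. Chow-fed mice ranged from 43.7 to 137 CPM around a median of 58.3, WTD-fed mice from 25.3 to 199 CPM around 40.3, and atorvastatin-treated mice from 33.3 to 95.4 CPM around 76.0. Its coefficient of variation was 83.0% in WTD-fed mice and 25.8% in atorvastatin-treated mice, where genes of at least 5 CPM had a median of 21.7% and 17.3%. Mice 7, 8 and 9 of the WTD group, with 124, 199 and 178 CPM, stood above 10 WTD-fed mice that were below the lowest chow-fed mouse. In atorvastatin-treated mice 14 of 16 were above the WTD median although the means differed by 0.09 on the log2 scale (interval -0.43 to 0.61, adjusted p = 0.893). WTD mice 8 and 9 are among the 8 libraries that lack weakly expressed genes, without which this difference was 0.48 (adjusted p = 0.146), and limma-voom gave 0.31 (adjusted p = 0.239). Log2 fold changes against chow were -0.16 (interval -0.75 to 0.44) on WTD and -0.06 (interval -0.66 to 0.53) with atorvastatin, the second of which changed sign without the 8 weak libraries. Without them the first was -0.40 (adjusted p = 0.213). Relative to hepatocyte markers the sign on WTD also turned, with a mean log2 difference of 0.53 from chow. Angptl8 lies wholly within the body of Dock6 on the opposite strand, with 0 shared exon bases. Its reads were counted with strand-specific libraries, and whether the counting used the strand is not given in the sources used here.

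Angptl4 and Angptl8, which share lipoprotein lipase as a target, were also compared within each mouse, where their ratio overlapped between groups and was not tested. In CPM, Angptl8 exceeded Angptl4 in 4 of 10 chow-fed, 11 of 16 WTD-fed and 13 of 16 atorvastatin-treated mice. The mean log2 ratios of CPM were -0.35 ± 1.19, 0.67 ± 1.01 and 1.13 ± 1.13. Which gene is higher depends on the unit, because Angptl8 has 865 and Angptl4 3541 exon bases. Per kilobase the mean of Angptl8 was above that of Angptl4 in every group. The means were 84.0 and 28.7 on chow, 75.3 and 9.93 on WTD, and 80.3 and 9.80 with atorvastatin. Of further angiopoietin-like genes, Angptl6, a factor linked to energy expenditure, was 2.61-fold lower on WTD than on chow (24.5 ± 7.58 and 9.38 ± 5.02 CPM, adjusted p = 1.13e-07). It was 1.81-fold higher in atorvastatin-treated than in WTD-fed mice (17.0 ± 3.99 CPM, adjusted p = 0.00076), with 16 of 16 treated mice above the WTD median. Angptl2, a factor of stromal and fat tissue, was 1.88-fold higher on WTD (22.6 ± 8.38 and 42.6 ± 7.68 CPM, adjusted p = 6.98e-07) and 42.7 ± 6.86 CPM with atorvastatin. Angptl1 and Angptl7 had means of at most 1.19 CPM and were not called.

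Lpl itself, which encodes lipoprotein lipase, rose from a mean of 49.1 CPM on chow to 637 CPM on WTD (log2 fold change 3.70, adjusted p = 2.66e-14) and was lower with atorvastatin, at 314 CPM (log2 fold change -1.02, adjusted p = 0.000624). Macrophages are known to express this enzyme, and 9 of 12 macrophage markers were called higher on WTD while with atorvastatin 6 of 12 were called lower and 1, Clec4f, higher. Their part in the Lpl result was not tested. Of the 9 tested genes of lipoprotein lipase and its cofactors, Lpl was the only one called higher on WTD and 6 were called lower, among them Apoc3, an inhibitor of the lipase, at -1.36 (adjusted p = 5.48e-14). With atorvastatin Apoc3 and Lmf1, the maturation factor of lipases, were called higher, Lmf1 at 0.29 (adjusted p = 0.00808). Neither of these was called by DESeq2.

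PPAR alpha is the nuclear receptor under which Angptl4 is known to rise in fasting. Of 17 tested genes, Ppara itself and its targets, 10 were called lower on WTD than on chow, Ppara among them, beside 16.0% of all genes. Only 1 was called higher, beside 17.5% of all genes, and the median log2 fold change of the 17 was -0.62. The hepatocyte markers had 11 of 11 called lower at a median of -0.91. Fabp1, the fatty acid binding protein of hepatocytes, fell by 1.13 on the log2 scale (adjusted p = 1.69e-08) and Acadm, an enzyme of fatty acid oxidation, fell by 0.62 (adjusted p = 9.13e-10). Cidec, a lipid droplet protein, was the gene that rose. Between atorvastatin-treated and WTD-fed mice edgeR and DESeq2 called 0 of the 17, 4 were higher at an unadjusted p under 0.05, and limma-voom called 5 higher and 1 lower. ChREBP and SREBP1c are the lipogenic factors under which Angptl8 is known to be expressed. Their list held 15 genes, targets together with the factor genes Mlxipl (ChREBP) and Srebf1 (SREBP1c) themselves. On WTD 4 were called higher, beside 17.5% of all genes, led by Scd1 at 2.14 (adjusted p = 6.99e-12) and with Srebf1 among them. Only 1, the ChREBP gene Mlxipl, was called lower, beside 16.0% of all genes. With atorvastatin 9 were called higher against WTD, beside 4.84% of all genes, with Acly at 1.47 (adjusted p = 0.000604) and Me1 at 1.02 (adjusted p = 0.000423). Only 1 was called without the 8 weak libraries.

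**Figure D3:**
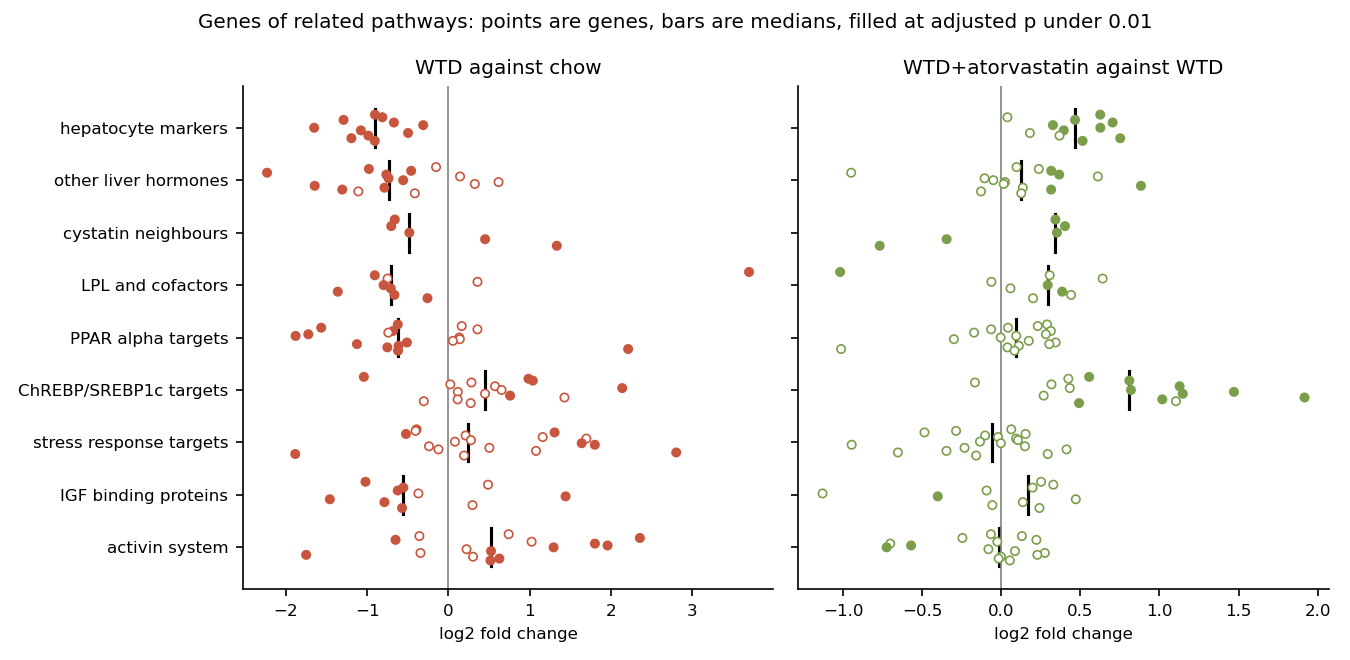
Log2 fold changes of the genes in 9 lists, WTD-fed against chow-fed mice on the left and atorvastatin-treated against WTD-fed mice on the right. Each point is 1 tested gene, filled at an adjusted p under 0.01, and the black bar is the median of its list. Hepatocyte markers lie at a median of -0.91 on the left and 0.47 on the right, and PPAR alpha targets at -0.62 and 0.09.

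Fgf21 (chr7:45613886-45615490, minus strand) and Gdf15 (chr8:70629393-70632456, minus strand) are hormones of cell stress. Promoters were read from RefSeq (GRCm38.p6), which held 8 of the 9 genes and not Angptl4, over the 250 bases before the start and on both strands. The composite element of C/EBP and ATF factors, spelled TGATGNAAT, was found in Fgf21 and Angptl8 and in 0.816% of all 32851 promoters. The E-box CACGTG was in Fgf21 and before an alternative start of Gdf15 that lies within the gene (6.02% of promoters), the insulin response sequence CAAAACAA in Igfbp1 (2.21%), the forkhead sequence GTAAACA at the alternative start of Fetub (3.17%), and 2 copies of AGGNCA spaced by 1 base in Gdf15 (0.338%). Elements of the composite and insulin response kinds are known to carry responses to amino acid stress and to insulin. Whether the matches found here do so was not tested. The stretches around them are shown with the match in capitals and the gene's own direction from left to right.
Fgf21, chr7:45615592-45615660, minus strand, match on the opposite strand 132 to 140 bases before the start: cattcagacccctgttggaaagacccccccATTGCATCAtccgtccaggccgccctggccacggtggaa
Angptl8, chr9:21835350-21835418, plus strand, match on the same strand 122 to 130 bases before the start: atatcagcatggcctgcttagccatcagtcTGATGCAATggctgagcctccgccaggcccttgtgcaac
Igfbp1, chr11:7197649-7197716, plus strand, match on the same strand 101 to 108 bases before the start: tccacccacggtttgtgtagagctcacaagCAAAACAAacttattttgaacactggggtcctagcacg

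Fgf21 was the weakest of the 9. Chow-fed mice ranged from 0 to 10.3 CPM with a median of 3.93, and 1 of them (mouse 5) had 0 counts. By counting error alone this allows a level of up to 0.152 CPM. In that library, however, 46.4% of the genes at 1 to 2 CPM had no count, so its level of Fgf21 can lie above that limit. WTD-fed mice had 0.465 to 16.2 CPM with a median of 9.02, and 14 of 16 were above the chow median. Atorvastatin-treated mice had 1.85 to 18.0 CPM around a median of 6.96. The groups overlapped, with 6 WTD-fed mice above the highest chow-fed mouse. The log2 fold change on WTD was 1.19 (standard error 0.44, interval 0.31 to 2.08) with an adjusted p of 0.0236, which missed the threshold in edgeR. It passed in DESeq2 (1.24, adjusted p = 0.00701) and limma-voom (1.73, adjusted p = 0.00639), passed without chow mouse 3 and without WTD mouse 15, and was 0.97 (adjusted p = 0.0982) without the 8 weak libraries. Between atorvastatin-treated and WTD-fed mice it was -0.36 with an interval of -1.09 to 0.38, and 14 of 16 treated mice were below the WTD median. Relative to hepatocyte markers, with 0.1 CPM added as for every member, the mean log2 differences of Fgf21 were 2.61 on WTD against chow and -0.78 with atorvastatin against WTD. Chow mouse 5 enters there as 0.1 CPM, which lowers the chow mean and raises the first value. Medians per 1000 CPM of the markers were 0.029 on chow, 0.133 on WTD and 0.059 with atorvastatin. Its receptors were measured in the same livers, where Fgfr4 was called lower on WTD (log2 fold change -0.54, adjusted p = 7.96e-08) and Fgfr1 and Fgfr2 higher, the latter by 0.57 (adjusted p = 8.68e-06). Klb, the co-receptor beta-klotho, was called higher with atorvastatin, from 19.8 to 33.5 CPM (log2 fold change 0.76, adjusted p = 9.69e-05), as was Fgfr4 (0.30, adjusted p = 0.00148).

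Gdf15 was spread in chow-fed mice from 7.89 to 38.4 CPM with a median of 13.0, of which 6 were below 15 CPM and 4 were above 25 CPM. WTD-fed mice lay between 19.7 and 51.4 CPM with a median of 29.2, and 16 of 16 were above the chow median although 12 stayed within the chow range. Atorvastatin-treated mice had 13.9 to 39.0 CPM around a median of 29.8. Gdf15 was 1.65-fold higher on WTD (log2 fold change 0.72, standard error 0.23, adjusted p = 0.00825). This call was lost in 3 of 10 alternatives, with no filter, with only the 2 groups fitted and without the 8 weak libraries (0.66, adjusted p = 0.0341), and when any 1 of 13 of the 42 mice was dropped (chow mice 1, 5, 6, 7, 8 and 10 and WTD mice 4, 5, 7, 8, 10, 12 and 16). Against WTD the value with atorvastatin was -0.23 (interval -0.62 to 0.16, adjusted p = 0.535). Per 1000 CPM of hepatocyte markers the mean log2 differences were larger, 1.80 on WTD against chow and -0.73 with atorvastatin against WTD. The receptor of GDF15 is made in the hindbrain, and its gene Gfral had 0 counts in every mouse here. Neither Gfral nor Ret, listed with it, was tested. Of the 4 tested genes of convertases and proteases, Mmp14, a membrane protease, was called higher on WTD (1.04, adjusted p = 4.04e-13) and lower with atorvastatin (-0.56, adjusted p = 1.4e-05). Pcsk5, a proprotein convertase, was called lower on WTD (-0.83, adjusted p = 1.98e-06), and the convertase gene Furin was called higher with atorvastatin (0.38, adjusted p = 0.000686).

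Of 18 tested targets of the integrated stress response, 4 were called higher on WTD, beside 17.5% of all genes, the transcription factor gene Atf3, the serine synthesis genes Psat1 and Phgdh and the cystine transporter gene Slc7a11. Another 3 were called lower, beside 16.0% of all genes. They were Atf4, the gene of the driver itself (log2 fold change -0.39, adjusted p = 4.28e-07), Atf5 and the cystathionine lyase gene Cth, which went from 614 to 166 CPM (-1.88, adjusted p = 4.51e-17). The median of the list was 0.24. With atorvastatin edgeR and DESeq2 called 0 of 18, 2 were higher at an unadjusted p under 0.05, and limma-voom called 1. Among 10 p53 targets, a program that also includes Gdf15, 2 were called higher on WTD and 2 lower, which is near the same shares of all genes, with Phlda3 at 1.54 (adjusted p = 0.000431) and Fas at -0.43 (adjusted p = 0.000502). edgeR and DESeq2 called 0 of the 10 with atorvastatin, 1 was higher at an unadjusted p under 0.05, and limma-voom called 2 lower.

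Inhbe (chr10:127348857-127354411, minus strand) ranged from 20.0 to 86.4 CPM in chow-fed mice (median 49.3), from 24.9 to 107 CPM in WTD-fed mice (median 52.4) and from 35.3 to 91.4 CPM in atorvastatin-treated mice (median 51.1). The groups overlapped throughout, and 4 WTD-fed mice were above the highest chow-fed mouse. Log2 fold changes were 0.26 on WTD (interval -0.21 to 0.73, adjusted p = 0.386) and -0.13 with atorvastatin against WTD (interval -0.54 to 0.28, adjusted p = 0.785), the latter with a sign that changed between settings. Relative to hepatocyte markers the mean log2 differences were 1.13 and -0.57. Of 15 other tested genes of the activin system, 7 were called higher on WTD, beside 17.5% of all genes. Another 2 were called lower, beside 16.0% of all genes, and 6 were not called. Inhbb, the activin B subunit, rose from 1.31 to 6.81 CPM (2.36, adjusted p = 1.92e-07), and Fstl1, a follistatin-like protein of mesenchymal cells, from 13.9 to 54.2 CPM (1.96, adjusted p = 5.52e-12). The summed level of 10 stellate cell and fibroblast markers had medians of 548 CPM on chow, 2174 on WTD and 1277 with atorvastatin, and its part in the rise of Fstl1 was not tested. Inhbc, the liver subunit closest to Inhbe, was among the 2 called lower. With atorvastatin 2 were called lower, beside 2.26% of all genes. They were Fstl1 at -0.57 (adjusted p = 0.00741) and Bambi, a pseudoreceptor, at -0.73 (adjusted p = 0.00634), and neither was called without the 8 weak libraries. Inhbe lies within the body of an antisense gene, Gm47200, that had 3581 counts over all mice and shared 0 exon bases.

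Igfbp1 (chr11:7197782-7202546, plus strand) was spread widely within each group. Chow-fed mice ranged from 46.0 to 240 CPM (median 137), WTD-fed mice from 32.7 to 233 CPM (median 127) and atorvastatin-treated mice from 39.9 to 185 CPM (median 96.1). It was not called in any comparison, with log2 fold changes of -0.17 on WTD (interval -0.78 to 0.44), -0.22 with atorvastatin against WTD (interval -0.76 to 0.31) and -0.39 with atorvastatin against chow (interval -1.0 to 0.21). On the scale of hepatocyte markers the sign on WTD turned, with a mean log2 difference of 0.71 from chow and of -0.63 between atorvastatin and WTD. Related genes of insulin-like growth factors, their binding proteins and receptors were also tested, 10 in all. Igfbp7, a binding protein of endothelium and stroma, was the only one called higher on WTD (1.44, adjusted p = 9.49e-16), beside 17.5% of all genes. The 6 called lower, beside 16.0% of all genes, were Igfbp2, Igfbp4, Igfbp5, Igfals, Igf1 and Insr, with Igf1 at -0.79 (adjusted p = 3.23e-12). With atorvastatin Igfbp7 was called lower (-0.40, adjusted p = 0.0017), and Igfals, which holds the circulating complex together, stood at 0.47 (adjusted p = 0.0116). Igfbp1 belongs to the program of FoxO1 and of fasting, for which 14 genes were listed, Foxo1 itself included. On WTD 2 of them were called higher, Foxo1 among them, and 6 lower, beside 17.5% and 16.0% of all genes. Among the lower were Tat, an amino acid catabolic enzyme, at -1.19 (adjusted p = 1.71e-08) and the insulin receptor gene Insr at -0.57 (adjusted p = 2.52e-07). Tat and the transcription factor gene Klf15 were called higher with atorvastatin, at 0.75 (adjusted p = 0.000197) and 0.47 (adjusted p = 0.00551). Without the 8 weak libraries 1 of the 14 was called higher in that comparison, and 1 higher and 4 lower on WTD.

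Of 15 other tested genes of hormones that the liver secretes, 9 were called lower on WTD and 0 higher, beside 16.0% and 17.5% of all genes. At an unadjusted p under 0.05, 1 was higher, and DESeq2 and limma-voom each called 1 higher. Agt, the precursor of angiotensin, fell by 1.31 on the log2 scale (adjusted p = 6.55e-20) and Rbp4, the carrier of retinol, fell by 0.98 (adjusted p = 2.06e-13). With atorvastatin 4 were called higher against WTD, beside 4.84% of all genes, among them Agt at 0.31 (adjusted p = 0.00107) and Gpld1, a phospholipase in plasma, at 0.37 (adjusted p = 0.000905). The median of this list was -0.74 on WTD, beside -0.91 for the hepatocyte markers.

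**Figure D4:**
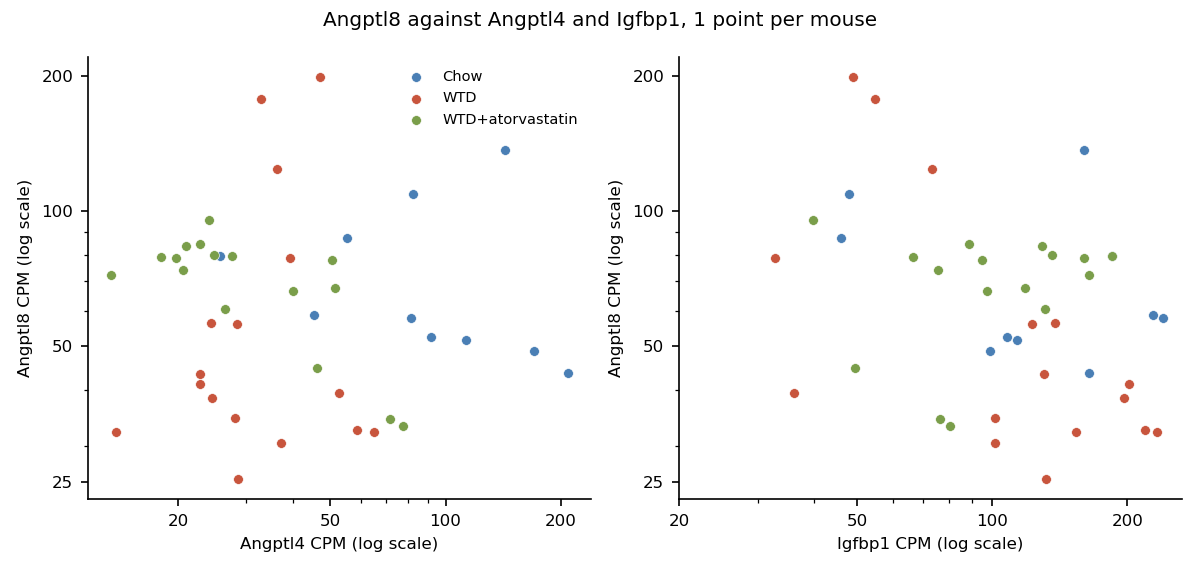
Angptl8 against Angptl4 (left) and against Igfbp1 (right) in CPM on log axes, with 1 point per mouse and 1 colour per group. The 3 WTD-fed mice above 100 CPM of Angptl8 have 48.9 to 73.2 CPM of Igfbp1, and the 3 treated mice below 50 CPM of Angptl8 have 46.2 to 77.2 CPM of Angptl4.

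Mice of one group differed together in some members. Correlations of log2 CPM were computed for 36 pairs of genes in each group, 108 in all, with permutation tests of 100000 permutations and Benjamini-Hochberg adjustment over the 108. By Spearman's rho 0 pairs had an adjusted p under 0.05 and 21 had an unadjusted p under 0.05. By Pearson's r 3 pairs passed and 23 had an unadjusted p under 0.05. Ahsg and Inhbe went together in the 16 WTD-fed mice (r = 0.76, permutation p = 0.00098, adjusted 0.0353, rho = 0.69, permutation p = 0.00421, adjusted 0.114), with r = 0.74 without the 2 mice farthest from the median of Ahsg. Fetub and Igfbp1 went opposite ways in WTD-fed mice (r = -0.74, permutation p = 0.00049, adjusted 0.0353, rho = -0.57, permutation p = 0.024, adjusted 0.209), with r = -0.54 without the 2 mice farthest from the median of Fetub. The same pair had r = 0.80 in the 10 chow-fed mice (permutation p = 0.00535, adjusted 0.0963, rho = 0.77, permutation p = 0.0123, adjusted 0.209, and r = 0.67 without the 2 farthest), so its sign differed between groups, a difference that was not tested. Angptl4 and Angptl8 went opposite ways in the 16 atorvastatin-treated mice (r = -0.75, permutation p = 0.00073, adjusted 0.0353, rho = -0.57, permutation p = 0.0225, adjusted 0.209), with r = -0.46 without the 2 farthest mice, so that this relation rests in large part on them. In that group mice 13, 14 and 15 had the lowest levels of Angptl8, at 34.5, 44.7 and 33.3 CPM, beside 71.6, 46.2 and 77.2 CPM of Angptl4, while in WTD-fed mice the pair had r = 0.16 (permutation p = 0.551, adjusted 0.727, rho = -0.01, permutation p = 0.969, adjusted 0.978, and r = 0.20 without the 2 farthest). Igfbp1 was lower in larger libraries of chow-fed and WTD-fed mice (rho = -0.66 and -0.75, given as a description). So were Ahsg in chow-fed mice (-0.64) and Fetub in atorvastatin-treated mice (-0.61), and over all members and groups this rho lay between -0.75 and 0.38. With the share of genes at 1 to 2 CPM without a count, Ahsg had a rho of 0.50 in WTD-fed and -0.55 in atorvastatin-treated mice. The part of library size and of these gaps in the correlations was not tested.

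**Figure D5:**
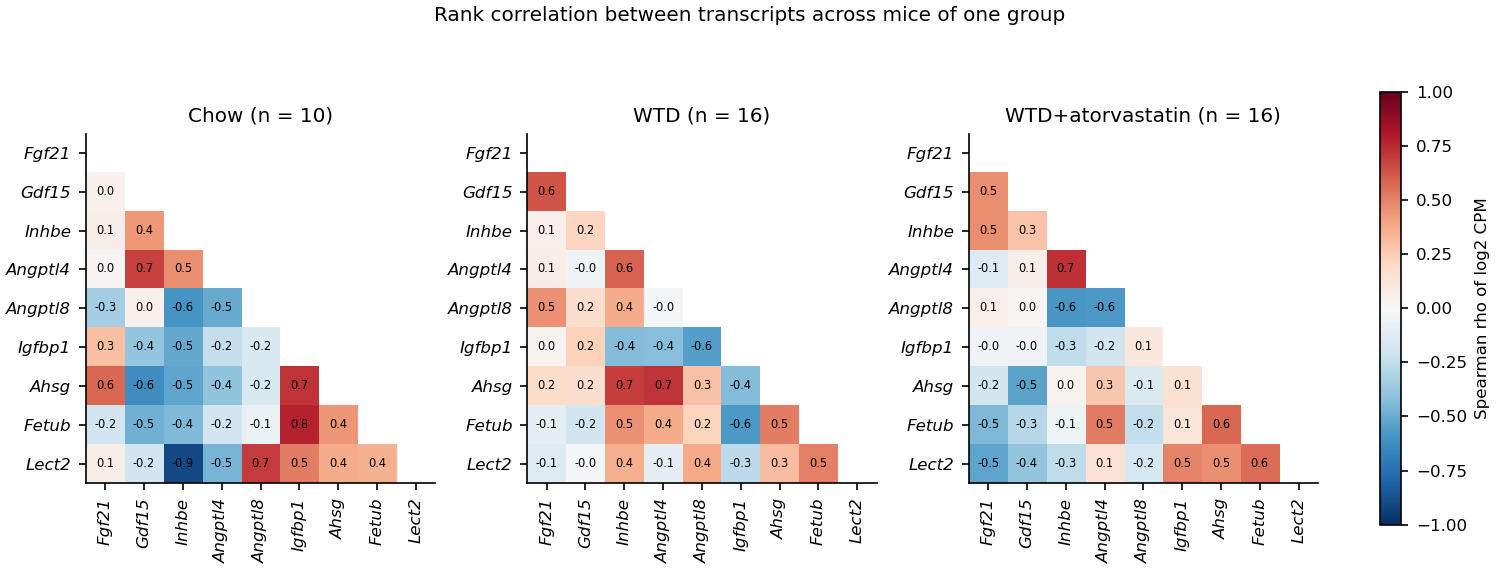
Spearman's rho of log2 CPM between the 9 transcripts, across the 10 chow-fed, 16 WTD-fed and 16 atorvastatin-treated mice, 1 panel per group with red for positive and blue for negative values. Fetub and Igfbp1 are positive in chow-fed (0.77) and negative in WTD-fed mice (-0.57), and Fetub and Lect2 are positive in each group (0.36, 0.51 and 0.56).

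The genes whose levels followed each member most closely from mouse to mouse were listed as a description, by the mean of Spearman's rho over the 3 groups among 12791 genes with at least 1 CPM in every group. Points of one group share diet and treatment, and library size was not held fixed. Each gene named is among the 3 highest of 12791, so high values come in part from that choice, and none was tested. Angptl4 was followed by Lgals4 (mean rho 0.80), by Creb3l3 (0.79), a fasting transcription factor of the liver, and by Slc27a2 (0.78), a fatty acid activating enzyme. Lect2 was nearest to Apof (0.80), an apolipoprotein, Hagh (0.77) and Cyp2b9 (0.77). Igfbp1 was nearest to Zfp36l1 (0.78), an mRNA decay factor, Ypel2 (0.77) and Irf2bp2 (0.77), and Inhbe to Fitm2 (0.77), a protein of lipid droplet formation, the mitochondrial carrier gene Slc25a47 (0.72) and Hacd3 (0.67). For Fetub the list was Kng1 (0.72), Rdh16f2 (0.70) and Apoa1 (0.67), and for Ahsg it was Gm10319 (0.70), Fkbp5 (0.69), a glucocorticoid target, and again Apoa1 (0.65). Fgf21 was nearest to the lysosomal genes Dpp7 (0.70) and Psap (0.70) and to Ier3 (0.68). The likeness was weaker for Angptl8, with Stxbp4 (0.62) and Emc4 (0.57), and for Gdf15, with Jun (0.55), Plk2 (0.54) and Gpx4 (0.53). A mean can hide a group with a weaker relation. For Gdf15 and Jun rho was 0.818 on chow, 0.206 on WTD and 0.624 with atorvastatin. For Angptl8 and Stxbp4 it was 0.891, 0.315 and 0.656 in the same order.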

How the data were processed

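Liver RNA of 42 mice was measured by strand-specific sequencing of polyadenylated RNA, 1 library per mouse. The authors deposited the count of read pairs per gene, not normalized. The submitters' processing notes name Trimmomatic, STAR 2.5, HTSeq 0.6.1p1 and GRCm38, and the study's annotation was another GENCODE release than the one used here for names. The merged table of 54446 genes was identical to the 42 single tables. Summary lines of the counter were left out. Read pairs counted in no gene were 2.28% on average, ambiguous ones 5.96% and those aligned to several places 4.68%. Symbols and positions came from GENCODE vM21, in which 54409 identifiers matched without version.

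Genes passing filterByExpr at 10 counts and a total of 15 were kept, TMM-scaled and fitted in edgeR 4.0.16 by quasi-likelihood (R 4.3.3, robust, all 42 mice, no covariate). P-values were adjusted after Benjamini and Hochberg over 15574 genes and called under 0.01, the threshold of the study. Log2 CPM used a prior count of 2. Mice of a group are separate animals that were group-housed, and cages are not given. The study used DESeq2, which with limma-voom was an alternative here. Counts per mouse limit precision for weak genes, and intervals for a count of 0 (3 counts) cover counting error only.

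The members and lists were chosen with earlier results of these data known. The text names the 9 members, the angiopoietin-like genes, the 2 genes per list with the smallest p in each of the first 2 comparisons, the 3 genes most like each member and overlapping genes. A few genes that this rule names are not reported here. Other genes that a list calls were named after their values were seen, as were the mice named. Ratios to hepatocyte markers were also chosen after the data were seen. The listed symbols Pcsk3 and Tf were not matched in the annotation. The fits were repeated in DESeq2 1.42.0 and in limma 3.58.1 (voom, quality weights). Within edgeR they were repeated with RLE or upper-quartile scaling, unfiltered, on genes reaching 10 counts in all mice, without the robust option, after dropping the 20 most abundant genes, on 2 groups at a time, at a threshold of 0.05, after dropping the libraries that lack weak genes, and after dropping each mouse. The script for the main test was first tested on simulated data. Correlations and promoters were computed in Python 3.11.15.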

Additional observations from a re-analysis of the deposited data

How the results depend on the processing

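For WTD against chow and for atorvastatin against chow, the number of members called stayed within 1.5 times under every alternative run, with 4 to 6 and 4 to 4 members when each mouse was left out. Between atorvastatin-treated and WTD-fed mice it was 1 and became 0 with RLE scaling, upper-quartile scaling, at least 10 counts in every mouse, only the 2 groups compared and DESeq2, and 3 with an adjusted p under 0.05 and with limma-voom. Leaving out each mouse gave 0 to 3. It was 0 without any 1 of WTD mice 1, 3, 4, 5, 6, 7, 10, 12, 13 and 16 or treated mice 5, 6, 8, 9, 10, 13, 14 and 16, 3 without WTD mouse 15, and 2 without treated mouse 2, 4 or 7. Without the libraries that lack weak genes it was again 1, but Ahsg in place of Fetub. The cause was not tested. Signs changed for values near 0 that were not called. For atorvastatin against WTD, Angptl4 was 0.0827 by limma-voom and -0.1438 to 0.0643 with each mouse left out, and Inhbe was 0.17 by limma-voom and 0.0624 without the weak libraries. For atorvastatin against chow, Angptl8 was 0.0761 without the weak libraries and -0.1256 to 0.0849 with each mouse left out. No scaling moved the median of all genes by over 0.1 on the log2 scale. Ahsg had no value without the 20 most abundant genes, and Fgf21 had none with at least 10 counts in every mouse. The alternatives for ratios and for groups that do not overlap were chosen after seeing the data, and the ratios moved by less than their spread, while 3 members did not overlap between WTD and chow under RLE scaling. No paired analysis was possible because the mouse numbers name single animals of different groups. Depth limits Fgf21 most, with 0 to 414 counts per mouse.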
